A study of Mus musculus with 7 samples.

Results

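The genes that encode the nuclear pore complex were followed through 24 h of erythroid maturation with and without zinc restriction. They were taken by symbol: every symbol made of Nup and a number, plus Ndc1, Pom121, Seh1l, Sec13, Rae1, Aaas and Tpr, leaving out symbols with -ps, of which there were 0. The rule found 28 genes among 55367 symbols. There were 26 with at least 1 TPM (a level per gene length, scaled to the same total in every library) in at least 3 libraries at 24 h, and each of those 26 had 2.4 TPM or more in all 7 libraries. The other members, Nup210l and Nup62cl, paralogs of Nup210 and Nup62, lay between 0 and 0.06 TPM and at 0 TPM. Samples came from G1E-ER4, a mouse erythroid progenitor line without its own GATA1 that carries GATA1 fused to an estrogen receptor domain, so every group shared that deletion and that transgene, and all libraries stand for 1 line. The 0 h group was 1 library of cells that were not differentiating, the control group was 3 libraries after 24 h with 100 nM β-estradiol, and the DTPA group was 3 libraries after 24 h with 100 nM β-estradiol and 50 µM DTPA (a chelator with high affinity for zinc) added as differentiation began. All cells were kept with erythropoietin and Kit ligand. The question was how the transcripts of this assembly stood when maturation ran under control zinc and under zinc restriction.

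The nuclear pore complex is a large ring-shaped channel that spans both membranes of the nuclear envelope and carries all regulated traffic of protein and RNA between nucleus and cytoplasm. An outer ring of Y-shaped complexes and an inner ring form its scaffold, a transmembrane ring anchors it, nucleoporins with phenylalanine-glycine repeats fill the central channel, filaments with mRNA export factors face the cytoplasm, and a basket faces the nucleus. Pores are built new in interphase and reassembled after each mitosis, and in the erythroid lineage the nucleus condenses and is finally expelled.

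Estimated depth was 17.6 to 21.2 M reads per library, and 59 to 17637 reads stood behind a value of the 26 detected members. Libraries of a group correlated at 0.988 to 0.990 across genes, and control with DTPA libraries at 0.947 to 0.952. All 10 erythroid marker genes were detected (1 TPM in at least 3 of 7 libraries), with a summed level of 12871 TPM at 0 h, 54509 to 58697 TPM in the controls and 63533 to 81669 TPM under DTPA. Of 8 megakaryocyte markers, 3 were detected, with Vwf and Ppbp at 0, and their sum was 39.5 TPM at 0 h, 9.08 to 12.7 TPM in the controls and 42.4 to 51.5 TPM under DTPA. Of 9 myeloid and mast cell markers 2 were detected, with Mpo, Itgam, Lyz2 and Mcpt8 at 0. Their sum was 14.9 TPM at 0 h, 3.41 to 3.86 TPM in the controls and 3.62 to 5.80 TPM under DTPA. Of 7 lymphoid markers 1 was detected, with Cd3e and Cd8a at 0. Their sum was 0 TPM at 0 h, 0.23 to 1.06 TPM in the controls and 2.56 to 2.82 TPM under DTPA. Of 5 stromal markers 0 were detected (0 to 0.16 TPM in sum), with Col1a1, Col3a1 and Dcn at 0. The erythroid, megakaryocyte and lymphoid sums moved with the groups, and the myeloid and mast cell sum was highest at 0 h. The part of these sums in the pore results was not tested.

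The pore transcripts were high in the progenitors, lower after differentiation and lower again under DTPA. The 28 genes summed to 3081 TPM at 0 h, to 1557, 1545 and 1587 TPM in the controls and to 1006, 1023 and 1041 TPM under DTPA. The libraries of a group lay close together and the groups stood far apart. The share of all TPM was 0.308% at 0 h, 0.156% ± 0.00213 (SD, n = 3) in the controls and 0.102% ± 0.00177 under DTPA, so the controls held 50.7% and the DTPA libraries 33.2% of the summed 0 h level. With the globin genes taken out of the totals, the shares were 0.311%, 0.164% and 0.110%. In bulk RNA, fewer cells of a type and less RNA per cell cannot be told apart. The spread among the members widened as their level went down: the SD of log2 TPM over the 26 detected members was 0.81 at 0 h, 1.37 to 1.44 in the controls and 1.54 to 1.63 under DTPA, and the highest member exceeded the lowest by 9.54-fold, by 44.7- to 51.1-fold and by 59.8- to 74.1-fold.

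**Figure D1:**
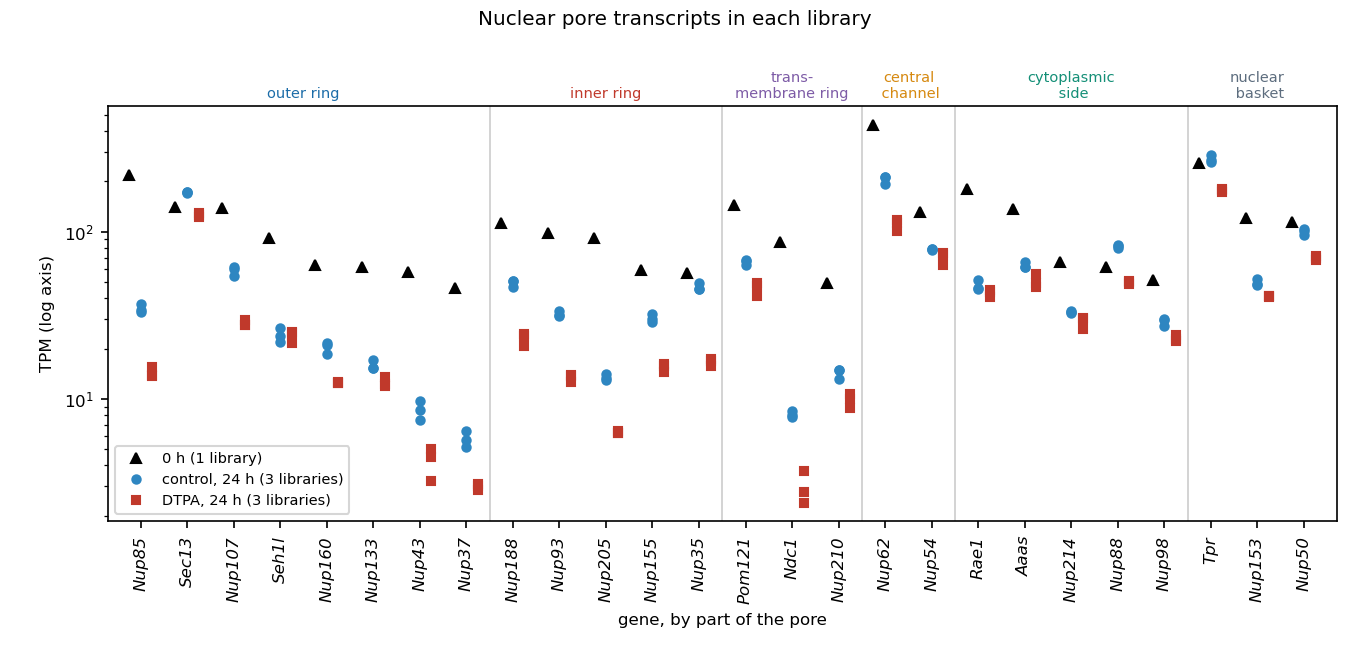
Level of the 26 detected nuclear pore genes in each library, in TPM on a log axis, with genes on the horizontal axis grouped by part of the pore and ordered by their 0 h value; triangles are the single 0 h library, circles the 3 controls at 24 h and squares the 3 DTPA libraries at 24 h. Only for Nup88, Sec13 and Tpr do the controls lie above the 0 h library, and only for Seh1l do DTPA and control libraries overlap.

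The promoter windows of 4 genes are shown because the genes behind them bracket the response: among the members with a window, Ndc1 and Nup93 had the largest falls under DTPA, Nup107 had the most E2F matches, and Rae1 had the smallest change. They were chosen after the values were seen. Each runs from 250 bases before to 50 bases after a RefSeq transcript start in GRCm38.p6, 5′ to 3′ on the gene's strand, and capitals mark the motif matches.
Ndc1, chr4:107367797-107368096, plus strand: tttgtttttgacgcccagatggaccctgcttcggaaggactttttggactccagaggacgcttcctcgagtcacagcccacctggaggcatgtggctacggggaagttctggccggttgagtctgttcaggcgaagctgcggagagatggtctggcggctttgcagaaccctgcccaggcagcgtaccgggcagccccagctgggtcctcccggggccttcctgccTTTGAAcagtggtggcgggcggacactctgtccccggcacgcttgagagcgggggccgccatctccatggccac
Nup93, chr8:94214314-94214613, plus strand: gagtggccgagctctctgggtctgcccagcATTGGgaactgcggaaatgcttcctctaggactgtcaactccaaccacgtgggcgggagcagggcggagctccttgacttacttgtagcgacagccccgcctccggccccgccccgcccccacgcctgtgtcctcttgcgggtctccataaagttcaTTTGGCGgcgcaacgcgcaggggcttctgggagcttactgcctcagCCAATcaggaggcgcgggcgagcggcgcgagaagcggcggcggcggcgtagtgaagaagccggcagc
Nup107, chr10:117792656-117792955, minus strand: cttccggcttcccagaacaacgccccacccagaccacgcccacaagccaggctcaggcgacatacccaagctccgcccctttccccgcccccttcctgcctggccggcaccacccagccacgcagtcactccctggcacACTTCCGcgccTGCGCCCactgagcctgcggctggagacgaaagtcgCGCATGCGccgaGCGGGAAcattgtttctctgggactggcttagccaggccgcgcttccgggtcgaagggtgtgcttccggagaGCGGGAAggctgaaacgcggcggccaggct
Rae1, chr2:172999867-173000166, plus strand: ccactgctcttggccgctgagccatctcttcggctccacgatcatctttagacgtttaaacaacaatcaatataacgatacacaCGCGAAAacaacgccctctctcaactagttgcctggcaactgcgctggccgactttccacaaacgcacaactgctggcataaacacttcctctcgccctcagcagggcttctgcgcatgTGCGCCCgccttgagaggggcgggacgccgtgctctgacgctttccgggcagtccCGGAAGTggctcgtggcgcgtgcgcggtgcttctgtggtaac
Counted from 1 at the 5′ end, the Ndc1 match at 227 was the cell cycle homology region CHR (TTTGAA). The Nup93 window shown had NF-Y letters (CCAAT) at 31 and 234 and E2F letters at 188. A second Nup93 window, chr8:94266597-94266896, is not printed. It had ETS letters at 75, NF-Y letters at 105 and no E2F match. Nup107 had ETS letters (CGGAAGT) at 140, a metal response element, the kind of site that the zinc sensor MTF1 binds, at 151, NRF1 letters (GCATGCG) at 187 and 188 and E2F letters at 199 and 271. Rae1 had E2F letters at 85, a metal response element at 204 and ETS letters at 259.

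Windows were found for 23 of the 28 members, 26 windows in all, and none for Nup35, Nup43, Nup85, Nup210l and Seh1l. Both strands were searched. The E2F search took TTTCGCG, the variant with the letters TTTGGCG, and a further one with the letters TTCCCGC, and that for metal response elements took TGCACNC as well as the form TGCGCNC. The NRF1 letters overlap their own reverse complement so that 1 place can count as 2 matches, and NRF1 and metal response element letters can overlap each other. ETS letters were in 30.8% of the member windows, 6.42% of all 32851 windows in the table and 16.0% of the 9669 windows of genes tested at 24 h. For E2F the shares were 19.2%, 6.72% and 13.3%, for NRF1 11.5%, 3.58% and 7.22%, and for YY1 (AAGATGG) 15.4%, 6.34% and 8.08%. Metal response element letters were in 50.0%, 25.7% and 36.2%, CHR letters in 26.9%, 17.9% and 12.02%, and NF-Y letters in 46.2%, 37.4% and 39.6%. GATA letters (AGATAA), the ones GATA1 binds, were in 1 member window, that of Sec13, which is 3.85% beside 11.2% and 6.34%. A match describes letters only.

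During differentiation under control zinc, most pore transcripts fell, and the median change was largest in the outer ring. Of 26 tested members, 17 fell and 0 rose in the controls against 0 h by the rule of an adjusted p under 0.05 and a log2 fold change of at least 1 in size (limma, Benjamini-Hochberg), where 24.3% of all 11906 tested genes fell and 15.1% rose. At an unadjusted p under 0.05, with no minimum fold, 23 members were lower and 2, Nup88 and Sec13, were higher. In either direction, 9072 of all 11906 tested genes passed that threshold. The median log2 fold change was -1.21 over the members and -0.22 over all genes; every log2 fold change here is on the scale of log2(TPM + 1), which understates changes of low genes. By part, 7 of 8 outer ring genes fell (median -1.90), 3 of 3 tested transmembrane ring genes (-1.73), 3 of 5 inner ring genes (-1.18), 2 of 5 genes of the cytoplasmic side (-0.96), 1 of 2 tested central channel genes (-0.91) and 1 of 3 basket genes (-0.18). The 0 h library has no replicate and was assumed to vary like the other groups. With median-of-ratios scaling, 14 members fell, since Aaas, Nup62 and Pom121 then came under the minimum fold. Of all 11781 genes tested with that scaling, 2446 fell and 2059 rose.

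Under DTPA almost all members were lower still. Against the controls at 24 h, 23 of 26 tested members fell and 0 rose at an adjusted p under 0.05 (limma, Benjamini-Hochberg). Of all 11147 tested genes, 36.4% fell and 21.7% rose. At an unadjusted p under 0.05, 25 members were lower and 0 higher, and 6970 of all tested genes passed in either direction. Every DTPA library lay below every control for 25 members, all but Seh1l, as it did for 40.3% of all tested genes. The median log2 fold change was -0.64 over the members and -0.09 over all genes. All 5 inner ring genes fell (median -1.07), as did 7 of 8 outer ring genes (-0.71), all 3 tested transmembrane ring genes (-0.52), all 3 basket genes (-0.52), 1 of 2 tested central channel genes (-0.53) and 4 of 5 genes of the cytoplasmic side (-0.31). Parts hold 2 to 8 tested genes each and were not tested against each other. Median-of-ratios scaling and quantile normalization moved the median of all genes from -0.09 to 0.01 and 0.01 and the members' median to -0.53 and -0.49, with 22 and 20 members lower, and all genes then split into 3222 lower and 3141 higher and into 3112 lower and 3190 higher calls in place of 4059 and 2415.

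**Figure D2:**
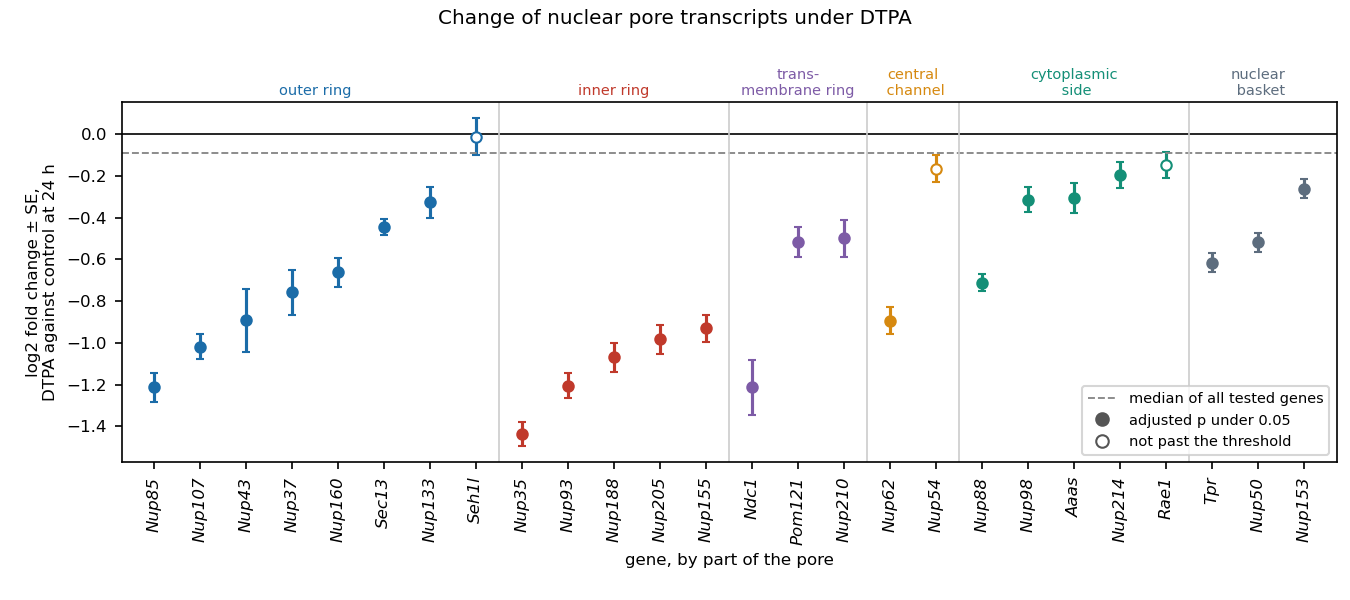
Log2 fold change (log2 of TPM + 1) with its standard error for the 26 tested nuclear pore genes, DTPA against control at 24 h, 3 libraries each, with genes on the horizontal axis grouped by part of the pore. Filled points passed an adjusted p of 0.05 and open points did not; the dashed line is the median of all tested genes at -0.09, and all 5 inner ring genes lie between -1.44 and -0.93.

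Against 0 h, 21 of 26 tested members fell and 0 rose in the DTPA libraries, where 27.6% of all 12016 tested genes fell and 15.7% rose, and the median log2 fold change was -1.95 over the members and -0.30 over all genes. The members not called were Nup50, Nup54, Nup88, Sec13 and Tpr. At an unadjusted p under 0.05, with no minimum fold, 26 members were lower and 0 higher, and 9374 of all tested genes passed in either direction. This comparison shares its libraries with the preceding ones. With median-of-ratios scaling and with quantile normalization 19 members fell, since Nup214 and Nup98 came under the minimum fold, and the sign of Sec13 turned. Of all 11966 genes tested with median-of-ratios scaling, 2670 fell and 2415 rose. Of all 12016 tested with quantile normalization, 2611 fell and 2586 rose. On the deposited scale, all 26 members were below the 0 h library in every DTPA library, an order that 52.1% of all genes tested at 24 h had. For 22 of them the 0 h library lay above every control and every control above every DTPA library, which held for 21.3% of all genes.

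**Figure D3:**
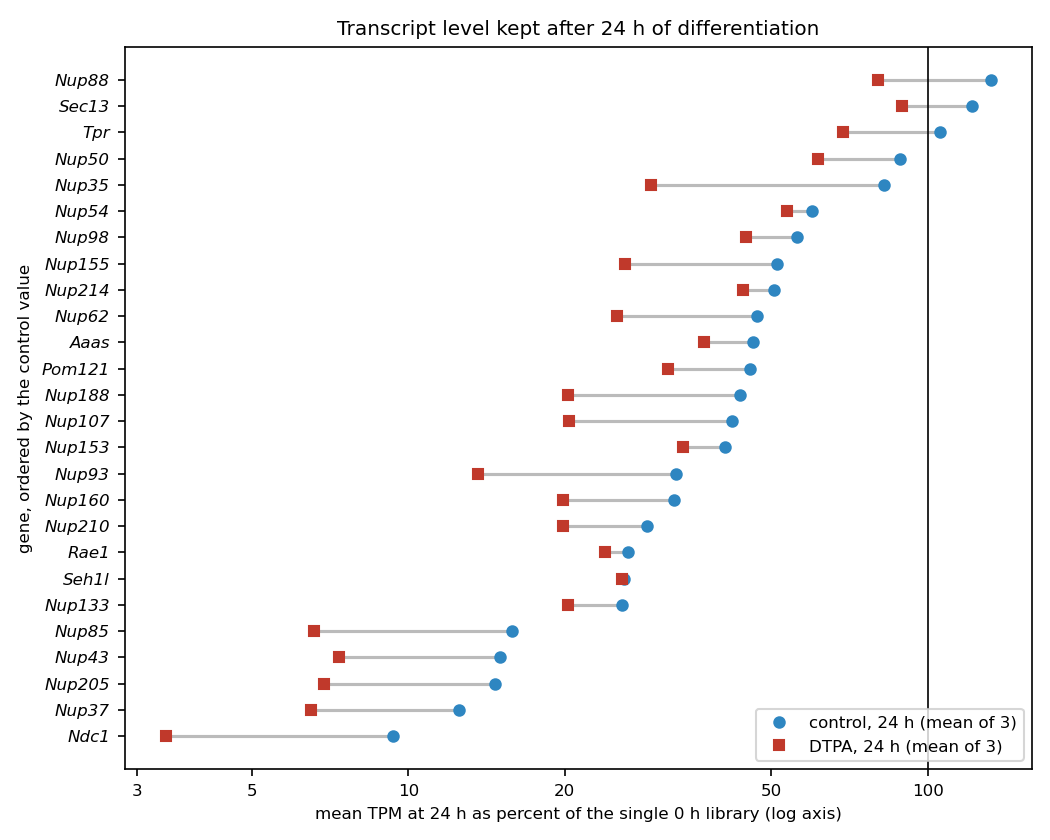
Mean TPM at 24 h as a percentage of the single 0 h library, on a log axis, for the 26 detected nuclear pore genes ordered by the control value; circles are control means and squares DTPA means of 3 libraries. Ndc1 is at the bottom with 9.33% and 3.41%, Nup88 at the top with 132% and 80.1%, and the points of Seh1l nearly coincide.

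The outer ring, or Y complex, has a stem of Nup133, Nup107, Sec13 and Nup96 (the last encoded by Nup98), a short arm of Nup85, Seh1l and Nup43 and a long arm of Nup160 and Nup37, and it seeds new pores after mitosis. Its summed level was 821 TPM at 0 h, 340 ± 8.71 TPM in the controls and 225 ± 2.97 TPM under DTPA (SD, n = 3 each). Of these sums Sec13 alone made up 142, 172 and 126 TPM, so the ring's other genes fell further than the sums show. Nup85 (chr11:115564434-115583985, plus strand), which holds Seh1l in the short arm, was 219 TPM at 0 h, 34.0, 33.3 and 37.0 TPM in the controls and 14.0, 13.8 and 15.5 TPM under DTPA. No libraries of different groups overlapped, and Nup85 went from the third highest member at 0 h to rank 14 in the controls and rank 18 under DTPA. Its log2 fold change was -2.62 for differentiation (adjusted p = 3.11e-06) and -1.21 ± 0.068 (SE) for DTPA (adjusted p = 4.92e-06). Nup107 (chr10:117750621-117792705, minus strand), the stem subunit whose promoter is shown above, was 139 TPM at 0 h, 61.5, 54.5 and 59.6 TPM in the controls and 27.5, 27.8 and 29.9 TPM under DTPA. Its groups did not overlap either, with log2 fold changes of -1.24 for differentiation (adjusted p = 3.71e-05) and -1.02 ± 0.061 under DTPA (adjusted p = 7.02e-06).

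Nup37 and Nup43 are small propeller proteins of the Y complex found in animals but not in budding yeast. Nup37 was 46.0 TPM at 0 h, 5.68, 5.15 and 6.43 TPM in the controls and 3.02, 3.09 and 2.84 TPM under DTPA. It was the lowest detected member at 0 h and in the controls, and its groups did not overlap. Its log2 fold change was -2.80 with differentiation (adjusted p = 7.99e-06) and -0.76 ± 0.11 under DTPA (adjusted p = 0.000592). Nup43 was 57.5 TPM at 0 h, 7.52, 8.64 and 9.76 TPM in the controls and 4.48, 4.99 and 3.21 TPM under DTPA. Here the relative spread was wider than for the other outer ring genes, still with no overlap between groups. For Nup43 these values were -2.61 (adjusted p = 0.000114) and -0.89 ± 0.15 (adjusted p = 0.00162). About 59 to 904 reads stood behind the values of these genes, and with a pseudocount of 5 the DTPA values moved to -0.43 for Nup37 and -0.57 for Nup43, still past the threshold. Nup160 and Nup133 kept 32.4% and 25.8% of their 0 h level in the controls and 19.9% and 20.2% under DTPA; they had DTPA log2 fold changes of -0.66 and -0.33, the latter -0.22 with median-of-ratios scaling and -0.21 with quantile normalization.

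Seh1l stood apart from its ring partners under DTPA, and Sec13 did so during differentiation. Each also serves outside the pore, Seh1l and Sec13 in the GATOR2 complex of amino acid sensing and Sec13 in the coat of vesicles that leave the endoplasmic reticulum. Whether these roles bear on the levels was not tested. Seh1l was 92.2 TPM at 0 h, 23.6, 21.8 and 26.6 TPM in the controls and 24.7, 21.6 and 25.1 TPM under DTPA. The 24 h groups overlapped fully and all 6 libraries lay far under the 0 h library. Its log2 fold change was -1.90 with differentiation (adjusted p = 3.98e-05) and -0.01 ± 0.088 under DTPA (adjusted p = 0.923), and the sign of the latter turned with several settings, up to 0.12 with quantile normalization. An antisense transcript, 4930549G23Rik, shares 126 bp of exon with Seh1l, and whether the counting used strand is not given in the sources used here. Sec13 was 142 TPM at 0 h, 173, 174 and 171 TPM in the controls and 130, 125 and 123 TPM under DTPA. On the deposited scale the controls were the highest group and the DTPA libraries the lowest, although the log2 fold change of DTPA against 0 h went from -0.16 to 0.10 with median-of-ratios scaling and to 0.03 with quantile normalization; Sec13 was among the 3 highest members in the controls. The difference between controls and 0 h, a log2 fold change of 0.28 (adjusted p = 0.00118), was under the minimum fold (0.44 with median-of-ratios scaling), while Sec13 fell under DTPA (-0.45 ± 0.037, adjusted p = 3.91e-05, or -0.29 with quantile normalization).

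The inner ring, made of Nup93, Nup155, Nup35 and the large paralogs Nup188 and Nup205, binds the envelope membrane and holds the channel nucleoporins in place. Its summed level was 420 TPM at 0 h, 172 ± 6.99 TPM in the controls and 74.9 ± 1.98 TPM under DTPA, and its share of all pore transcripts was 13.6%, 11.01% ± 0.296 and 7.32% ± 0.151. Nup35 (chr2:80617236-80658906, plus strand), a small membrane-binding linker, was 56.8 TPM at 0 h, 45.6, 45.4 and 49.2 TPM in the controls and 16.8, 17.3 and 15.8 TPM under DTPA. The controls were close to the 0 h library and the DTPA libraries far below both. Nup35 had the largest DTPA change of all members, -1.44 ± 0.057 (adjusted p = 9.44e-07), and a differentiation change of -0.28 (adjusted p = 0.0149), under the minimum fold; the latter was -0.12 with median-of-ratios scaling (adjusted p = 0.172) and -0.18 with quantile normalization (adjusted p = 0.0759). Exons of Nup35 and Dusp19, on the same strand, share 131 bp.

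Nup93 (chr8:94214564-94317227, plus strand), the scaffold hub that joins the ring to the central channel, was 98.5 TPM at 0 h, 31.2, 31.9 and 33.5 TPM in the controls and 12.6, 13.9 and 13.7 TPM under DTPA. Its libraries formed 3 separate levels, with log2 fold changes of -1.58 for differentiation (adjusted p = 9.64e-06) and -1.21 ± 0.060 under DTPA (adjusted p = 2.74e-06). Nup155, which contacts the membrane, was 59.3 TPM at 0 h, 29.9, 29.0 and 32.4 TPM in the controls and 16.2, 14.6 and 15.7 TPM under DTPA. It had the smallest DTPA change of the inner ring, -0.93 ± 0.065 (adjusted p = 1.59e-05), and its differentiation change of -0.94 (adjusted p = 0.000157) stayed under the minimum fold.

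Nup188 and Nup205 are alternative partners of Nup93. Their transcripts parted during differentiation, while the ratios of DTPA and control libraries overlapped. Nup188 (chr2:30286397-30344266, plus strand) was 113 TPM at 0 h, 50.7, 46.8 and 50.6 TPM in the controls and 20.9, 24.5 and 23.8 TPM under DTPA. Nup205 (chr6:35177421-35247596, plus strand) was 91.8 TPM at 0 h, 13.4, 12.9 and 14.2 TPM in the controls and 6.27, 6.44 and 6.25 TPM under DTPA. Both had 3 levels with no overlap between groups. With differentiation Nup188 changed by -1.18 on the log2 scale (adjusted p = 9.76e-05), whereas Nup205 changed by -2.68 (adjusted p = 1.67e-06). Under DTPA the values were -1.07 ± 0.070 (adjusted p = 1.13e-05) and -0.98 ± 0.068 (adjusted p = 1.43e-05). The ratio of Nup188 to Nup205 was 1.24 at 0 h, 3.79, 3.62 and 3.57 in the controls and 3.33, 3.80 and 3.80 under DTPA, with means of 3.66 ± 0.113 and 3.64 ± 0.272 (SD, n = 3). Exons of Nup188 share 492 bp with Gm14471 on the other strand and 284 bp with Gm28038 on the same strand.

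The transmembrane ring of Ndc1, Pom121 and Nup210 anchors the pore in the envelope, and its summed level was 282 TPM at 0 h, 88.4 ± 2.23 TPM in the controls and 58.8 ± 4.56 TPM under DTPA. Ndc1 (chr4:107367784-107416346, plus strand), a membrane protein that is needed to insert new pores, was 86.7 TPM at 0 h, 8.49, 7.76 and 8.03 TPM in the controls and 3.70, 2.77 and 2.40 TPM under DTPA. That left 9.33% of the 0 h level in the controls and 3.41% under DTPA, the smallest shares kept by any detected member, with no overlap between groups. Its log2 fold changes were -3.27 for differentiation (adjusted p = 1.87e-05) and -1.21 ± 0.13 under DTPA (adjusted p = 0.000153, or -0.72 with a pseudocount of 5), and its mean under DTPA was 2.74-fold lower than in the controls. Nup210, a glycoprotein of the lumen side, was 49.5 TPM at 0 h, 14.9, 13.1 and 14.8 TPM in the controls and 8.78, 9.98 and 10.7 TPM under DTPA. The groups of Nup210 did not overlap, and its changes were -1.73 (adjusted p = 5.44e-05) and -0.50 ± 0.089 (adjusted p = 0.00209). Pom121, which also carries channel repeats, was 145 TPM at 0 h, 66.0 ± 2.16 TPM in the controls and 46.0 ± 4.34 TPM under DTPA, and 665 bp of its exons overlap Nsun5 on the other strand.

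In the central channel, Nup62 and Nup54 are partners in the complex of repeat nucleoporins that forms the permeability barrier. Nup62, the highest member at 0 h, was 438 TPM there, 211, 214 and 193 TPM in the controls and 101, 118 and 113 TPM under DTPA. The controls and the DTPA libraries were far apart. Nup62 had log2 fold changes of -1.09 for differentiation (adjusted p = 0.000133) and -0.89 ± 0.067 under DTPA (adjusted p = 2.11e-05), and 97 bp of its exons are shared with Il4i1 on the same strand. Nup54 was 131 TPM at 0 h, 79.1, 78.0 and 78.4 TPM in the controls and 72.8, 63.2 and 74.3 TPM under DTPA. The DTPA libraries of Nup54 were all below the controls, by little, and replicate 2 was the lowest. Its DTPA value of -0.16 ± 0.064 missed the threshold (adjusted p = 0.0587), was -0.06 and -0.02 with median-of-ratios scaling and quantile normalization, and passed it without DTPA replicate 3 (adjusted p = 0.0405) and with a 5 TPM filter (adjusted p = 0.0478). The third subunit of that complex, Nup58, has the older symbol Nupl1, outside the symbol rule. Nupl1 was listed at 0 in all 7 libraries, while Gm49336, which shares 1756 bp of exon on the same strand (48.8% of the Nupl1 exons), was 16.9 TPM at 0 h, 8.97, 9.45 and 10.7 TPM in the controls and 7.70, 7.08 and 7.54 TPM under DTPA. The level of Nup58 transcripts cannot be read from these tables.

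On the cytoplasmic side, Nup214 and Nup88 form the platform for mRNA export, Nup98 and Rae1 bind exported RNA particles, and Aaas encodes aladin, the protein affected in triple A syndrome. Nup88 was 62.0 TPM at 0 h, 82.0, 80.1 and 83.7 TPM in the controls and 50.7, 49.8 and 48.4 TPM under DTPA. On the deposited scale the 0 h library lay between the groups of 24 h, and Nup88 went from rank 19 of 26 at 0 h to rank 5 in the controls. The log2 fold change of DTPA against 0 h was -0.31, under the minimum fold. It was -0.05 with median-of-ratios scaling (adjusted p = 0.372) and -0.08 with quantile normalization (adjusted p = 0.187). The control value was above 0 h by a log2 fold change of 0.40 (adjusted p = 0.000403), under the minimum fold, and Nup88 fell under DTPA (-0.71 ± 0.041, adjusted p = 5.96e-06). Rae1, which also works at the mitotic spindle, was 180 TPM at 0 h, 45.5, 46.4 and 51.2 TPM in the controls and 40.5, 44.96 and 43.4 TPM under DTPA. Its DTPA libraries were below its controls by a margin within the spread of each group. Rae1 fell with differentiation (-1.90, adjusted p = 8.52e-06), and its DTPA value was -0.15 ± 0.063 (adjusted p = 0.0793), or 0.01 with quantile normalization. Nup98, whose transcript also encodes the outer ring protein Nup96, changed by -0.31 under DTPA (adjusted p = 0.00305), and so did Aaas by -0.31 (adjusted p = 0.00741); with quantile normalization these were -0.17, still past the threshold, and -0.17, no longer past it. Nup214 had the weakest call, -0.19 (adjusted p = 0.0325), which was lost under 9 of 16 alternatives. It was -0.09 with median-of-ratios scaling and -0.06 with quantile normalization, and the adjusted p was 0.0880, 0.0763 and 0.0575 without control replicate 1, 2 or 3 and 0.0501 without DTPA replicate 1.

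Of the 6 parts the nuclear basket kept the largest share of its 0 h level in the controls, 85.6%, where most of the sum was Tpr. By gene, Tpr stood at 106% of its 0 h level there, Nup50 at 88.5% and Nup153 at 40.7%. The basket's summed level was 494 TPM at 0 h, 423 ± 15.9 TPM in the controls and 289 ± 3.53 TPM under DTPA. Its share of all pore transcripts was 16.0%, 27.1% ± 0.683 and 28.2% ± 0.548. Tpr, the coiled-coil protein that forms the basket's filaments, was 258 TPM at 0 h, 267, 263 and 287 TPM in the controls and 181, 174 and 178 TPM under DTPA. The 0 h library was just under the controls, the DTPA libraries were well below both, and Tpr was the highest member at 24 h in either group. The control value did not pass the test against 0 h (0.08, adjusted p = 0.266); with median-of-ratios scaling it was 0.23 (adjusted p = 0.00436), still under the minimum fold, and without control replicate 3 it was 0.04 (adjusted p = 0.395). Tpr fell under DTPA against the controls (-0.61 ± 0.044, adjusted p = 1.78e-05). Nup153, the anchor of the basket, was 122 TPM at 0 h, 48.7, 48.0 and 51.9 TPM in the controls and 41.2, 40.9 and 41.5 TPM under DTPA. Its groups did not overlap, and it changed by -1.28 with differentiation (adjusted p = 6.04e-06) and by -0.26 ± 0.046 under DTPA (adjusted p = 0.00199), the latter -0.11 with quantile normalization and then not past the threshold (adjusted p = 0.0507). Nup50, a mobile basket protein that helps release import cargo, was 114 TPM at 0 h, 101 ± 4.17 TPM in the controls and 70.0 ± 1.89 TPM under DTPA.

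**Figure D4:**
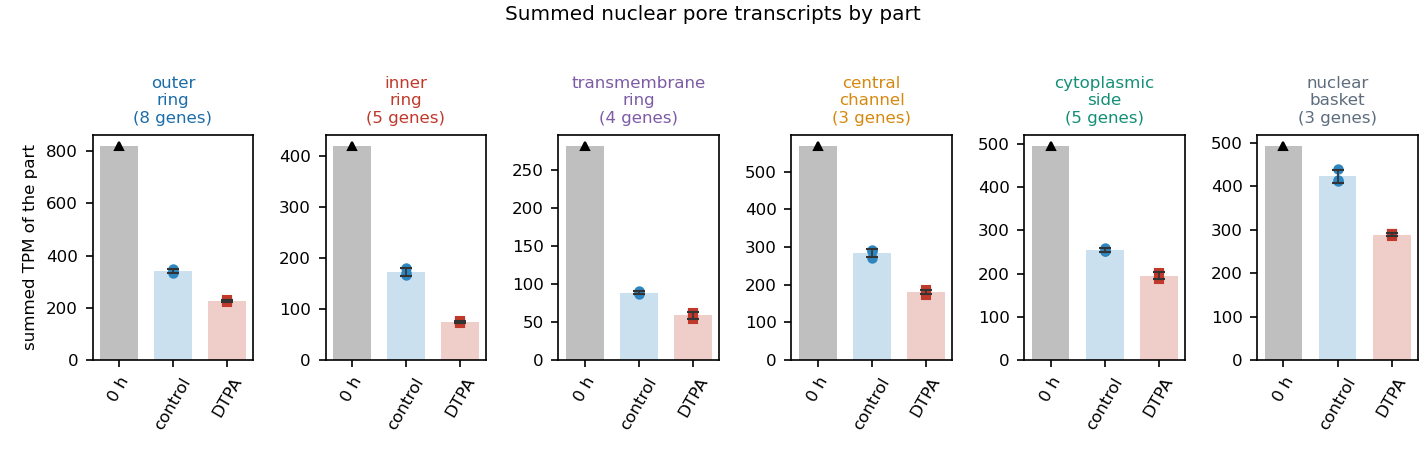
Summed TPM of each part of the nuclear pore, with 1 panel per part and a vertical axis from 0 in each; bars are the 0 h library or the means of 3 libraries at 24 h, points are libraries and error bars are SD. The inner ring goes from 420 to 172 and 74.9 TPM, while the basket goes from 494 to 423 and 289 TPM.

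Ratios between partner genes are given for 9 pairs, chosen after the values were seen and therefore as a description with no test; a scaling of the whole library cancels in them. Tpr over Nup153 was 2.12 at 0 h, 5.50 ± 0.0315 in the controls and 4.31 ± 0.0706 under DTPA, and Nup214 over Nup88 was 1.06, 0.405 ± 0.0123 and 0.584 ± 0.0569. In these pairs the DTPA libraries lay between the 0 h library and the controls. Pom121 over Ndc1 was 1.68 at 0 h, 8.17 ± 0.421 in the controls and 11.1, 17.8 and 19.8 under DTPA, and Seh1l over Nup85 was 0.421, 0.690 ± 0.0321 and 1.65 ± 0.0989. There the departure from the 0 h ratio went on under DTPA. Nup62 over Nup54 was 3.34, 2.62 ± 0.146 and 1.59 ± 0.243, and Nup93 over Nup155 was 1.66, 1.06 ± 0.0378 and 0.868 ± 0.0875. Nup85 over Nup107 was 1.57, 0.594 ± 0.0371 and 0.507 ± 0.0120, and Rae1 over Nup98 was 3.48, 1.65 ± 0.0937 and 1.86 ± 0.134.

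Pore components outside the symbol rule had a median DTPA log2 fold change of -0.24. Of 6 listed, 4 were tested and 2 fell under DTPA and 0 rose, where 36.4% of all tested genes fell and 21.7% rose. These were Gle1, the activator of the mRNA export helicase, from 47.3 ± 1.07 to 28.8 ± 0.926 TPM, and Ahctf1, which brings the Y complex to chromatin, from 55.4 ± 3.28 to 43.6 ± 1.21 TPM. Ranbp2, which encodes the main cytoplasmic filament protein, was 54.0 ± 2.30 and 50.5 ± 3.40 TPM (adjusted p = 0.203), and Nupl2, the older symbol of Nup42, was 12.9 ± 0.750 and 11.6 ± 0.0404 TPM (adjusted p = 0.0971). Both were named after their values were seen. None of the 4 was called in the controls against 0 h (median -0.21).

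The transport machinery that works through the pore was read from lists beside it; 36.4% of all tested genes fell and 21.7% rose under DTPA, with a median of -0.09. In the Ran cycle, which gives transport its direction, 6 of 8 genes fell under DTPA and 0 rose (median -0.90), among them Ran (-1.28), Ranbp1 (-1.25) and Rangap1 (-1.18). Of 17 tested importin genes, 15 fell and 0 rose (median -0.34), led by Kpna2 (-2.11), which carries classical import signals, then Ipo5 (-0.83) and Tnpo3 (-0.50). With median-of-ratios scaling 11 fell, as did 11 with quantile normalization, where 3222 and 3112 of all tested genes fell. Of 7 exportin genes, 3 fell and 0 rose (median -0.16): Xpo1 (-1.61), the general exporter, Cse1l (-1.03), which recycles importin alpha, and Xpo5 (-0.33). Under 4 alternatives 1 rose: median-of-ratios scaling, quantile normalization, the fit without globin genes and the fit without control replicate 3. Of 15 mRNA export genes, 9 fell and 3 rose (median -0.35), with Alyref (-1.01), Ddx19b (-0.67) and Thoc7 (-0.58) lower and Mcm3ap (0.16), Nxf1 (0.15) and Pcid2 (0.24) higher, the last 3 named after their values were seen. The count of 3 that rose came down to 1 under 6 alternatives, 4 of them the fits without control replicate 1, control replicate 2, DTPA replicate 2 or DTPA replicate 3. Of 11 tested genes of the lamina and of the bridge to the cytoskeleton, 8 fell and 2 rose (median -0.75), with Lmnb1 (-2.55), Tmpo (-1.96) and Sun1 (-1.42) lower and, named after their values were seen, Lemd2 (0.37) and Sun2 (0.19) higher; the count of 2 came down to 1 under 5 alternatives, 4 of them the fits without control replicate 2, control replicate 3, DTPA replicate 2 or DTPA replicate 3. The replication helicase genes Mcm2 to Mcm7, listed as a reference for proliferation, fell in both comparisons, as most pore genes did. With differentiation 6 of 6 fell, where 24.3% of all tested genes fell (median -1.59, beside -1.21 for the pore members). Under DTPA 6 of 6 fell (median -2.25, beside -0.64 for the pore members). The part of the helicase genes in the pore result was not tested.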

How the data were processed

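Total RNA from 7 samples was made into stranded mRNA libraries, per the labels' protocols. The submitters' processing notes name Trimmomatic 0.33, FastQC, HISAT2 2.1.0, featureCounts, edgeR and mm10. How the authors set strand, annotation release and gene lengths is not given in the sources used here. Deposited values are TPM per gene symbol, made by the authors; abundant genes that rise lower all others on this scale. Rows of repeated symbols (114 symbols, 234 rows) were summed. Depth was estimated from the smallest steps of low values and GENCODE M21 exon lengths. limma 3.58.1 in R 4.3.3 was fitted on log2(TPM + 1) across all genes (eBayes with trend, two-sided, Benjamini-Hochberg, threshold 0.05): DTPA against control in the 6 libraries at 24 h, over genes with 1 TPM in 3 libraries, and each 24 h group against 0 h in 7 libraries, over genes with a mean of 1 TPM in either group and with a minimum log2 fold change of 1. The fits were also run on simulated libraries in which few genes changed, unlike these data, so that run cannot speak to the choice of scaling. The labels call the replicates biological, and libraries of a group differed by more than counting noise (mean chi-square per gene 2.99 to 9.16). Coordinates and exon overlaps are from GENCODE M21 on GRCm38, the assembly also named mm10; promoter windows are RefSeq's. Protein sequences were not used here.

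Members and lists (6 parts of the pore, 7 context lists, 5 marker lists) were chosen with earlier results of these data known. Full values are given for the 12 members with the largest called DTPA change, the 6 with the largest called differentiation change, the 3 with the highest control mean and the member of each part with the smallest DTPA change; up to 3 called genes per context list are named. Alternatives were other pseudocounts, filters, scalings and sample sets, no variance trend, a replicate block and leaving out each replicate.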

Additional observations from a re-analysis of the deposited data

How the results depend on the processing

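For DTPA against control, 22 of 26 members kept their call and 24 their sign under all 16 alternatives; for DTPA against 0 h the counts were 19 and 25, and for the controls against 0 h 15 and 26. Between 22 and 24 members were called lower when a replicate was left out in turn, and 0 higher; over all genes 3653 to 3909 were lower and 1918 to 2312 higher. In the comparisons with 0 h these ranges were 17 to 17 (controls) and 21 to 21 (DTPA) lower and 0 to 0 higher. There, leaving out a replicate of the 24 h group not compared leaves the fold changes as they are. The filters, the fit with no variance trend, the replicate block and the lack of a minimum fold also leave them unchanged. Those alternatives could not turn a sign. The 0 h library cannot be left out. Signs turned for Seh1l under DTPA with median-of-ratios scaling (0.094), quantile normalization (0.12), without globin genes (0.019) and when replicates were left out (-0.075 to 0.062 over the 6, above 0 without control replicate 3 and without DTPA replicate 2, 0.053), and for Rae1 with quantile normalization (0.0057), none past the threshold. Sec13 in DTPA against 0 h turned with median-of-ratios scaling (0.10) and quantile normalization (0.028), and 19 members were then lower in place of 21, without Nup214 and Nup98. With no minimum fold, 23 members were lower and 2 higher in the controls against 0 h, by construction of the rule. Of all 11906 tested genes, 5188 were then lower and 3675 higher. In DTPA against 0 h, 26 members were then lower, beside 5594 lower and 3598 higher of all 12016 tested genes. That alternative alone changed the calls of Nup155, Nup214, Nup35, Nup50, Nup54, Nup88, Nup98 and Sec13 in the controls against 0 h. In DTPA against 0 h it alone changed those of Nup50, Nup54, Nup88, Sec13 and Tpr. The causes of the other changes were not tested. The shares of all TPM without globin genes were 0.311%, 0.164% and 0.110%. The median-of-ratios scaling and quantile normalization moved the median of all genes from -0.22 to -0.06 and -0.01 in the controls against 0 h and from -0.30 to -0.04 and -0.02 in DTPA against 0 h.

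Replicate numbers are shared by control and DTPA samples in the labels only: deviations of same-numbered pairs correlated at -0.01, 0.02 and -0.01. With the replicate block, 22 members were lower in place of 23, without Nup214 (adjusted p = 0.0545), and 3888 and 2274 of all genes were lower and higher. The lowest members had 59 to 85 estimated reads in a library, which limits their precision.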

Other observations

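Genes of the nuclear envelope beside the pore changed in either direction during differentiation. Of 12 tested genes of the lamina and of the bridge to the cytoskeleton, 4 fell and 4 rose in the controls against 0 h, with a median log2 fold change of -0.25, where 24.3% of all tested genes fell and 15.1% rose with a median of -0.22. Lmnb1, a B-type lamin, went from 291 TPM at 0 h to 35.2 ± 5.46 TPM (SD, n = 3) in the controls and 5.12 ± 0.209 TPM under DTPA. The genes that rose were Lmna, the A-type lamin, from 97.5 to 880 ± 96.5 TPM, Sun2, a protein of the inner membrane, from 12.7 to 250 ± 8.68 TPM, its relative Sun1 from 36.6 to 83.97 ± 2.59 TPM, and Syne3, an outer membrane partner, from 7.90 to 45.9 ± 2.62 TPM. They were named after their values were seen. Under DTPA Lmna was 521 ± 29.5 TPM, lower than in the controls (log2 fold change -0.75 ± 0.084, adjusted p = 0.00018). Sun1 was 30.8 ± 1.06 TPM, below the single 0 h library by less than the minimum fold (log2 fold change -0.24). Sun2 was 285 ± 18.2 TPM and Syne3 43.6 ± 2.21 TPM.

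The exportin gene Xpo7, described as acting in the terminal maturation of red cells and picked here after its values were seen, was 18.2 TPM at 0 h, 30.4, 30.4 and 33.9 TPM in the controls and 34.3, 34.9 and 35.0 TPM under DTPA. Each DTPA library lay above each control, an order that 24.7% of all tested genes had. The log2 fold change was 0.14 ± 0.056 (adjusted p = 0.0725), the only one above 0 among the 7 exportin genes. As given above, 1 exportin gene was called higher under 4 alternatives, among them median-of-ratios scaling, quantile normalization and the fit without globin genes.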
